A study of Homo sapiens with 40 samples.

Results

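Complex I of the respiratory chain (NADH:ubiquinone oxidoreductase) was followed through its nuclear-encoded genes in HepaRG cells. Members were taken by gene name alone: NDUFAB1 and every name made of NDUFA, NDUFB, NDUFC, NDUFS, NDUFV or NDUFAF followed by a number. This rule gave 46 of the 56568 gene names in the deposited tables. Of these, 7 are core subunits, 30 are accessory subunits, 8 are assembly factors, and NDUFA4, which keeps its complex I name, is a subunit of cytochrome c oxidase (complex IV). The level of a gene is its FPKM (a fragment count divided by transcript length and by how many fragments the library had mapped), summed over the 385 transcripts that carry a member's name.

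HepaRG is an established human hepatic progenitor line whose differentiated cultures hold both hepatocyte-like and biliary-like cells. Differentiated cells were exposed for 6 days, from day 8 to day 14 after plating, and total RNA depleted of ribosomal RNA was sequenced. There were 40 libraries in 8 groups of 5: solvent control; PCB 126 at 100 pM, 10 nM or 1 µM; glyphosate at 10 µg/L, 1 mg/L or 0.1 g/L; and the glyphosate-based herbicide Roundup at 10 µg/L. All groups, control included, were in test medium with serum and DMSO. PCB 126 belongs to the dioxin-like polychlorinated biphenyls and activates the aryl hydrocarbon receptor, and glyphosate is the declared active ingredient of Roundup. The 5 control libraries served both the PCB 126 and the herbicide comparisons, so those comparisons are not independent. All libraries come from 1 cell line, and the labels do not say whether the libraries of a group came from separate cultures, so p-values measure only the spread between these libraries, which may be technical.

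Complex I takes electrons from NADH, passes them along a chain of iron-sulfur clusters to ubiquinone, and pumps protons across the inner mitochondrial membrane. Its core subunits carry the flavin, the clusters, the quinone site and the proton channels. The core subunits of the membrane arm are encoded by mitochondrial DNA, and all other subunits by nuclear genes. Accessory subunits surround the core, and assembly factors build the complex without staying in it. In hepatocytes the complex reoxidises the NADH made by fatty acid oxidation and the citric acid cycle.

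The promoters of these genes were read for letters that known factors bind. Sites of NRF1, a main activator of nuclear respiratory genes that works with the coactivator PPARGC1A, and of the aryl hydrocarbon receptor are shown. The windows were the 250 bases upstream of each RefSeq start (GRCh38.p14); 39 of the 46 members were matched. The NRF1-type letters GCGCATGC stood on either strand in the windows of 5 of the 39 members (12.8%) and in 3.20% of 27266 other genes. Their sites are shown in the 5′ to 3′ direction of the gene, with the match in capitals.
NDUFB4, chr3:120596167-120596196, plus strand: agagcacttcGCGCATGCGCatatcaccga
NDUFS6, chr5:1801350-1801379, plus strand: ccagaagccgtGCGCATGCgttagcgctaa
NDUFA5, chr7:123557958-123557987, minus strand: gtatgcccatcGCGCATGCgtcaatttttc
NDUFS7, chr19:1383823-1383852, plus strand: ttccggtttccGCATGCGCtccgagccgct
NDUFA6, chr22:42090920-42090949, minus strand: tctgtagatgaGCATGCGCagcacccaccg
The NDUFB4 site is a palindrome in which the letters match on both strands. The matches start between 46 (NDUFS6) and 166 (NDUFA6) bases upstream of the start.

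The letters of the xenobiotic response element, TNGCGTG on either strand, which the activated aryl hydrocarbon receptor binds, stood in 4 of the 39 members (10.3%) and in 5.53% of the other genes. These sites are shown because PCB 126 is a ligand of that receptor.
NDUFS1, chr2:206159245-206159273, minus strand: ttcctttggccCACGCGAcgtagtcttct
NDUFAF2, chr5:60944972-60945000, plus strand: ccaaacccgttTGGCGTGcggacaaaaac
NDUFA12, chr12:95003766-95003794, minus strand: acgtctggcgtTCGCGTGagaaccttctg
NDUFB11, chrX:47144766-47144794, minus strand: tgggacctataTAGCGTGgcggaggcggg
The ETS-type letters CCGGAAGT were found upstream of NDUFA13 and NDUFS1 (5.13% of members, 4.13% of other genes), and AAGATGGCG, the letters of YY1, upstream of no member (0.785% of other genes). A match describes letters only, and 29 of the 39 members held none of these 4 motifs in the window.

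Some libraries stood apart as a whole. In 9 of the 40, the median of log2(FPKM + 1) over all tested genes was at most 2.72, against at least 2.93 in the other 31; 5 of the 9 carry replicate number 5, in control, PCB 126 10 nM, PCB 126 1 µM, glyphosate 10 µg/L and Roundup. The labels give no batch that marks them. CYP1A1, a direct target of the aryl hydrocarbon receptor, checked the PCB 126 labels: it ranged from 0 to 7.69 FPKM in control, from 92.1 to 377 at 10 nM and from 85.2 to 389 at 1 µM. At 100 pM its 5 values were 71.0, 36.4, 3.21, 1.09 and 319 FPKM. The 8 hepatocyte-like markers (ALB, TTR and others) were present in every group.

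All but 2 members were above 0 in every library. NDUFAF1 was listed at 0 in control replicate 2 and NDUFAF8 in Roundup replicate 5. Mean levels over the 40 libraries exceeded 10 FPKM for 33 members, lay between 5 and 10 for 4 and fell under 5 for 9. The highest was NDUFV2, a core iron-sulfur subunit next to the flavin site (chr18:9102630-9134345, GRCh38), with a mean of 66.3 FPKM and a range of 14.3 to 94.2. It was followed by the accessory subunit NDUFA13 (53.0 FPKM), by NDUFA4 (44.8) and by the membrane-arm subunits NDUFB2 (43.3) and NDUFA11 (39.8).

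The core subunits of electron input held a median level of 30.5 FPKM. Among them NDUFV1, which binds NADH and the flavin, averaged 30.5 FPKM, and NDUFS1, which carries further clusters, averaged 12.8 FPKM. In the quinone arm, where ubiquinone is reduced, the core subunits NDUFS8, NDUFS3 and NDUFS7 averaged 28.8, 20.7 and 15.9 FPKM. The accessory subunits had a median of 21.5 FPKM, with NDUFAB1, the mitochondrial acyl carrier protein, close to it at 20.9.

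Assembly factors were lower, with a median of 3.12 FPKM and a highest mean of 8.96 FPKM for NDUFAF3, which acts in the quinone module. The lowest 5 members held 3 of them: NDUFAF2 (0.984 FPKM), a relative of NDUFA12 that binds the late intermediate, NDUFAF7 (2.41), a methyltransferase, and NDUFAF6 (2.83). The other two were the accessory subunits NDUFV3 (2.47) and NDUFS6 (2.70), both of the matrix arm. The range of RNA levels of subunit genes for 1 complex was therefore wide, from 2.47 FPKM for NDUFV3 to 66.3 FPKM for NDUFV2 in named transcripts. The NDUFV3 locus held another 2.94 FPKM in transcripts without a gene name. FPKM also divides by the length of the assigned transcript. The most abundant transcript had 11819 bases for NDUFS1 and 930 for NDUFV2. The part of this length in the order of genes was not tested.

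**Figure D1:**
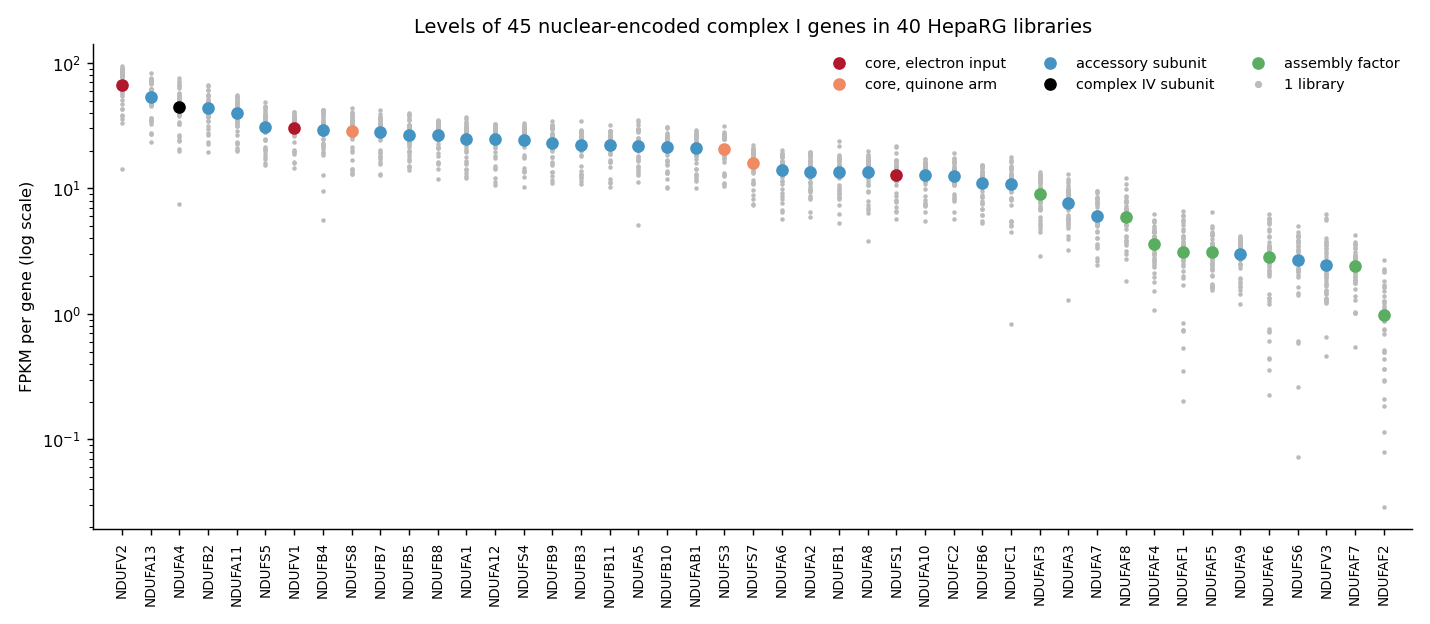
Level of 45 of the members in FPKM (log axis), ordered by mean; small grey points are the 40 libraries and large points the mean, coloured by role. Assembly factors (green) lie at the low end, with NDUFAF3 highest at 8.96 FPKM; values of 0 (NDUFAF1 and NDUFAF8, 1 library each) cannot be drawn on a log axis.

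Neighbours in this order mostly did not differ beyond their spread. Of the 45 neighbouring pairs, 2 had a mean log2 difference over the libraries larger than its SD. NDUFS3 exceeded NDUFS7 by 0.37 ± 0.18 (SD, n = 40) on the log2(FPKM + 1) scale and was the higher of the pair in 38 of 40 libraries. NDUFAF7 exceeded NDUFAF2 by 0.81 ± 0.57 (SD, n = 40) and was the higher in 39. NDUFV2 exceeded NDUFA13 in 37 of 40 libraries, but with a mean difference of 0.31 ± 0.44 (SD, n = 40).

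Members varied together from library to library. On the log2(FPKM + 1) scale, the correlation between members over the 40 libraries had a median of 0.70 and was above 0 for 1031 of 1035 pairs. The mean of the members in a library followed the library's median over all tested genes, with r = 0.97 over the 20 libraries of the PCB 126 table and r = 0.98 over the 25 of the herbicide table; the points share the scale of their library. Once each library's member mean was subtracted, the median correlation was −0.03 and the median SD of a member dropped from 0.42 to 0.20. Of the 1035 pairs 473 were then above 0, with a range of −0.65 to 0.74. The subtracted mean is that of these same members, which by itself draws their correlations to around 0. These values therefore cannot tell whether members share more than the scale of their library.

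The 9 libraries of low overall median also held the lowest summed levels. The sum of the 46 members was 449.8 to 658 FPKM in these 9 and 758 to 1178 FPKM in the other 31. For 43 of the 46 members the lowest library was one of the 9: for 14 members it was Roundup replicate 5, for 12 PCB 126 1 µM replicate 1, and for 9 PCB 126 10 nM replicate 3. PCB 126 1 µM replicate 1 also departed most in its pattern, with an SD of 0.75 (log2) of its members around their own means and its library mean. There NDUFA4 lay 1.73 below that expectation (log2 departure −1.73; 7.52 FPKM) and NDUFAF8 1.62 above it (12.04 FPKM).

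Summed levels of the 8 groups overlapped. Control summed to 928 ± 226 FPKM (SD, n = 5; range 553 to 1147), PCB 126 at 100 pM to 982 ± 134, at 10 nM to 790 ± 255 and at 1 µM to 791 ± 175. Glyphosate summed to 915 ± 284 at 10 µg/L, 1000 ± 94.6 at 1 mg/L and 908 ± 213 at 0.1 g/L, and Roundup to 842 ± 311 FPKM. PCB 126 100 pM and glyphosate 1 mg/L, the groups of smallest SD, held no library of low overall median.

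**Figure D2:**
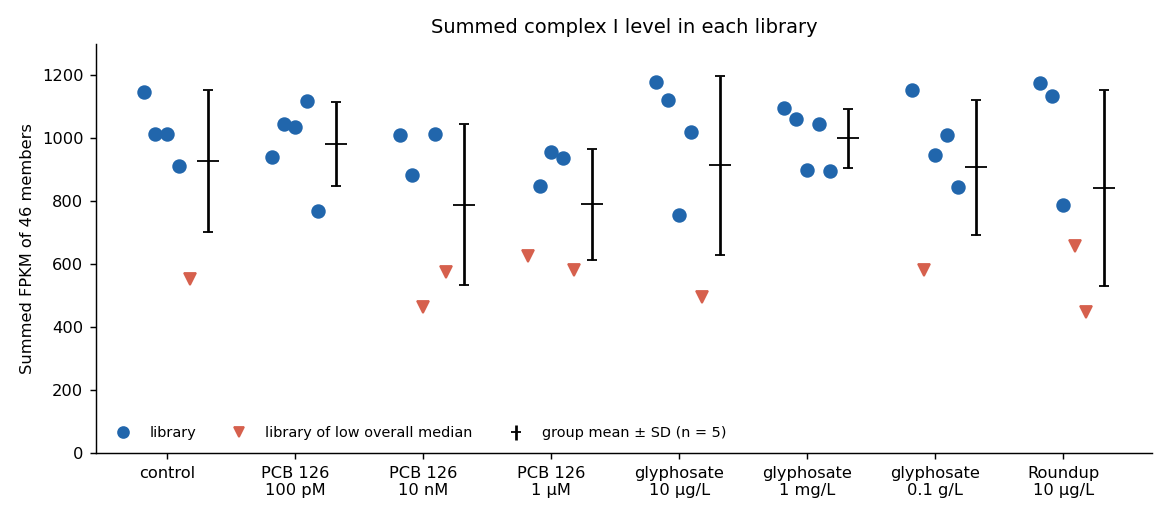
Summed FPKM of the 46 members in each library by group, with the group mean ± SD (n = 5); red triangles mark the 9 libraries of low overall median. The triangles lie between 449.8 and 658 FPKM and the other libraries between 758 and 1178 FPKM in every group that has both.

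The first question of the design was whether PCB 126 changed these genes. It did not do so past the test in any comparison: limma with Benjamini-Hochberg adjustment over all tested genes called 0 of the 42 members tested across the 4 groups, at 100 pM, at 10 nM, at 1 µM, and for a trend over the dose steps. The share of all 9755 tested genes called in the same comparisons was 1.39% across groups, 0% at 100 pM, 0.205% at 10 nM, 1.87% at 1 µM and 3.70% for the trend. At an unadjusted p under 0.05 stood 0, 1, 0, 2 and 4 members in that order with limma, and 0, 0, 0, 1 and 2 with the ordinary linear model, which also called none. Here and below, such unadjusted counts stand without the share of all tested genes at that p. They therefore cannot tell whether the members stand out. NDUFA9, NDUFAF2, NDUFAF5 and NDUFAF7 were below the variance filter and not tested here.

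The differences from control lay close to those of all tested genes. At 100 pM the median member difference was 0.12 (log2), against 0.07 over all tested genes, with 36 members higher and 6 lower. At 10 nM it was −0.24 against −0.21 (3 higher, 39 lower), and at 1 µM −0.20 against −0.26 (5 higher, 37 lower). After quantile normalization, which gives all libraries 1 distribution, the medians were 0.04, −0.05 and −0.01, with 26, 19 and 20 of 42 members higher. Without control replicate 5 the medians were −0.05, −0.39 and −0.38, and without PCB 126 10 nM replicate 3 that at 10 nM was −0.08. Without the libraries of low overall median, a choice made after seeing the data, the medians were −0.05, −0.07 and −0.18. A 95% confidence interval lay within 1 log2 unit of no difference for 38, 33 and 33 of the 42 members at the 3 doses. The median distance from the estimate to its limit was 0.58, so changes under about that size were not detectable. The intervals are not adjusted for the number of genes tested, so larger changes could also go uncalled. NDUFV2 at 1 µM, with a difference of −0.71, was not called.

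By role, 7 of 7 core subunits had a lower mean log2(FPKM + 1) at 1 µM than in control, none past the test; after quantile normalization NDUFV1 and NDUFS7 had differences of 0.03 and 0.04. Before it, differences ran from −0.14 for NDUFV1 and NDUFS7 through −0.20 for NDUFS3, −0.35 for NDUFS8 and −0.35 for NDUFS1 to −0.71 for NDUFV2. Of 29 accessory subunits tested, 27 had a lower mean (median −0.21). The 5 assembly factors tested were split, 3 with a higher and 2 with a lower mean, from −0.76 for NDUFAF6 to 0.34 for NDUFAF8. In PCB 126 1 µM the NDUFAF8 values were 12.04, 6.89, 8.14, 5.81 and 3.16 FPKM, the highest being replicate 1, and they were in control 6.58, 5.13, 6.60, 7.21 and 1.84.

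**Figure D3:**
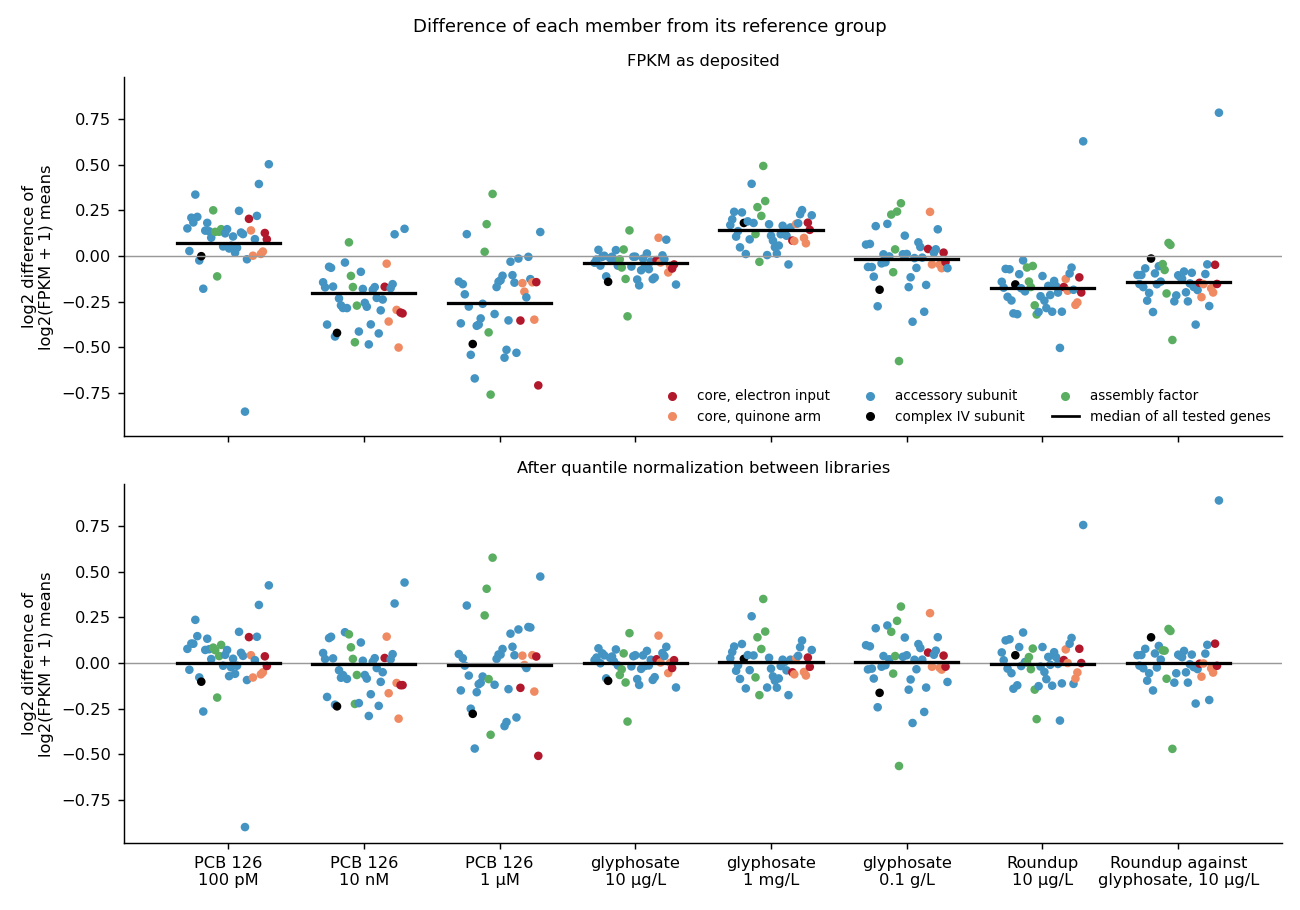
Difference of each tested member from its reference group (control, or glyphosate for the last column) in log2(FPKM + 1), coloured by role, before (top) and after (bottom) quantile normalization; black bars are the median of all tested genes. As deposited, members sit around the bar of all genes in each comparison (−0.20 against −0.26 at PCB 126 1 µM), and after normalization around 0, with NDUFC1 at 100 pM and NDUFV3 in the Roundup comparisons farthest out.

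NDUFV2, NDUFB5 and NDUFA5 had the smallest p at 1 µM. NDUFV2 was 94.2, 76.99, 67.4, 68.6 and 46.6 FPKM in control and 14.3, 63.0, 65.3, 56.2 and 37.9 FPKM at 1 µM. The ranges overlapped, and replicate 1 at 1 µM was far below all other control and PCB 126 libraries. The difference was −0.71 (95% interval −1.40 to −0.02, limma adjusted p = 0.350), and −0.34 without that library.

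NDUFB5, an accessory subunit of the membrane arm (chr3:179604690-179627647), was 30.8, 28.4, 29.3, 38.2 and 18.2 FPKM in control and 14.8, 21.3, 22.1, 23.2 and 17.2 FPKM at 1 µM. All 5 exposed libraries lay below the control mean of 29.0 ± 7.19 FPKM (SD, n = 5), with overlap only at control replicate 5. The difference was −0.51 (interval −1.03 to 0.01, limma adjusted p = 0.377), and an exact two-sided permutation test of the 2 groups gave p = 0.0317, or 0.322 after adjustment over the 24 such tests made for named members. It ranged from −0.67 to −0.41 over single left-out libraries, and was −0.11 for its most abundant transcript alone.

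NDUFA5, an accessory subunit of the matrix arm whose promoter holds the NRF1-type letters shown above, was 29.3, 34.8, 20.3, 20.7 and 16.4 FPKM in control and 5.11, 23.6, 17.8, 20.9 and 12.8 FPKM at 1 µM. The difference was −0.67 (interval −1.32 to −0.03, limma adjusted p = 0.344), and −0.34 without replicate 1 at 1 µM. Its most abundant transcript, ENST00000378795, which makes up 47.6% of its level, was chosen for a closer look after its values were seen. It was 19.4, 19.04, 14.1, 12.2 and 10.1 FPKM in control and 0.412, 9.18, 6.20, 6.84 and 5.92 FPKM at 1 µM, so the groups did not overlap. Its difference was −1.47 (limma adjusted p = 0.0868 over the most abundant transcripts of all genes). The mean of this transcript was also below control in every other exposed group. Its difference was −0.70 at PCB 126 100 pM and −0.27 at 10 nM, so it did not fall in order of dose. Over the 3 glyphosate doses it ran from −0.58 to −0.45, and with Roundup it was −0.62. Whether the shared control libraries were high for this transcript was not tested. The next transcript, ENST00000355749, was 1.56, 11.8, 2.75, 4.66 and 4.39 FPKM in control and 3.73, 11.4, 6.68, 8.81 and 5.52 FPKM at 1 µM, with overlapping ranges.

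The other genes with NRF1-type letters differed at 1 µM by −0.56 (NDUFB4), −0.38 (NDUFA6), −0.14 (NDUFS7) and −0.13 (NDUFS6), and the tested genes with the xenobiotic response element letters by −0.35 (NDUFS1), −0.21 (NDUFA12) and −0.14 (NDUFB11), while NDUFAF2 was not tested. None passed the test, and their values lay within the range of the other members.

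Over the dose steps, 39 of 42 members had a slope below 0 and 3 above, with a median of −0.10 per step, as for all tested genes (−0.10). The smallest p were those of NDUFB5 (−0.19 per step, limma adjusted p = 0.197), NDUFV2 (−0.25), NDUFAF6 (−0.29) and NDUFA5 (−0.21). Without replicate 1 at 1 µM the slopes of NDUFV2 and NDUFA5 were −0.14 and −0.11. The intermediate dose did not order these genes between the outer doses in every library: NDUFB5 was 24.04, 24.8, 14.8, 31.3 and 16.6 FPKM at 10 nM, within the range of control except for the 2 libraries of low overall median. NDUFS8, NDUFB9 and NDUFB5 had the smallest p at 10 nM, with differences of −0.50, −0.42 and −0.37. Without 10 nM replicate 3 those of NDUFS8 and NDUFB5 were −0.33 and −0.25, and without 10 nM replicate 5 that of NDUFB9 was −0.27. For NDUFS8, a core subunit of the quinone arm, control was 39.6, 37.7, 35.6, 28.8 and 16.8 FPKM and 10 nM was 31.2, 25.96, 12.9, 29.3 and 13.7 FPKM. The limma adjusted p was 0.865 for all 3 genes.

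**Figure D4:**
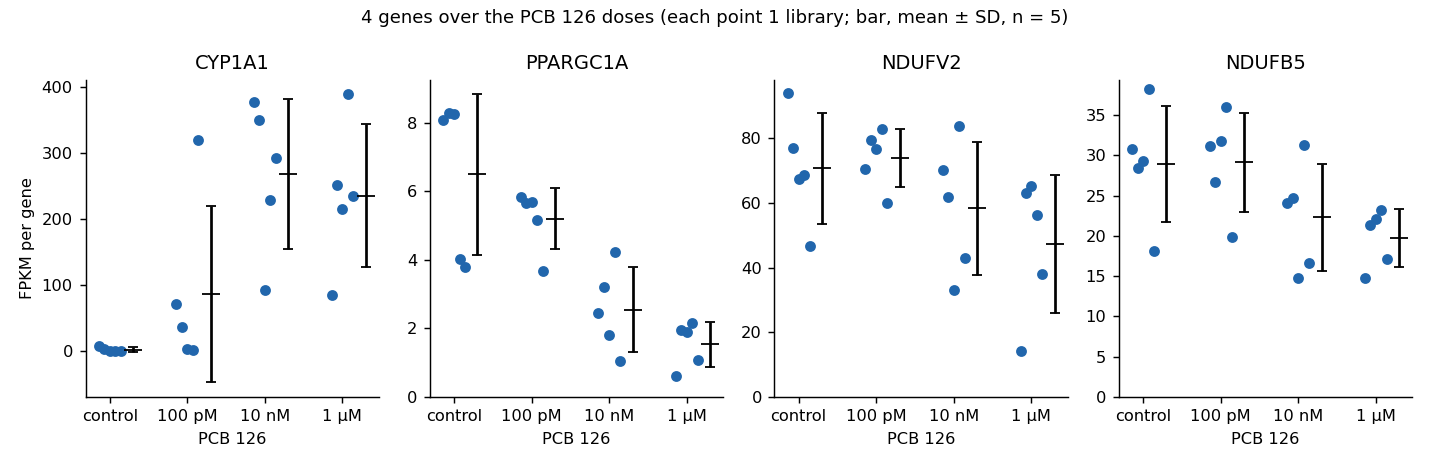
FPKM of CYP1A1, PPARGC1A, NDUFV2 and NDUFB5 in the control and PCB 126 libraries (n = 5 per group), with mean ± SD. CYP1A1 at 10 nM and 1 µM (85.2 FPKM or more) lies above all control values, PPARGC1A at 1 µM (at most 2.16 FPKM) lies below all control values (at least 3.80 FPKM), and both complex I genes overlap with control.

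At 100 pM the member farthest from control was NDUFC1, a small subunit of the membrane arm (chr4:139266880-139302551). Control was 14.9, 14.1, 16.4, 11.97 and 8.05 FPKM and 100 pM was 12.4, 12.8, 0.832, 5.54 and 10.5 FPKM, a difference of −0.85 (interval −1.69 to −0.01, limma adjusted p = 1). It was −0.34 when replicate 3 was left out, and −1.63 for its most abundant transcript alone. In that library the assembled locus held another 15.3 FPKM in transcripts that carry no gene name. Summed over the whole locus, the library reached 16.1 FPKM and the difference was −0.11 (interval −0.71 to 0.49), but the locus also holds the named gene MGARP, and which gene the unnamed transcripts belong to was not tested. NDUFV3 and NDUFS6 followed, with differences of 0.50 (0.26 over the locus) and 0.39 (0.14 without control replicate 5).

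Unnamed transcripts also held more than the named ones at the loci of 4 low members: NDUFAF1 (4.38 against 3.12 FPKM in mean), NDUFV3 (2.94 against 2.47), NDUFAF2 (1.08 against 0.984) and NDUFAF6 (2.85 against 2.83). For NDUFAF1, an assembly factor of the membrane arm, named and unnamed levels ran against each other over the 40 libraries (r = −0.64; both come from the same reads of a locus). In control replicate 2 it was listed at 0 with its name and at 9.70 FPKM without. The coefficient of variation over the 40 libraries dropped from 56.9% to 24.8% for NDUFAF1 and from 54.2% to 27.9% for NDUFV3 when the locus was summed. For NDUFAF6 another named gene shares the assembled locus.

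The second question was whether glyphosate or Roundup changed these genes. Of the 43 members tested, limma called 0 across the 5 groups, at glyphosate 10 µg/L, 1 mg/L and 0.1 g/L, at Roundup 10 µg/L, and for Roundup against glyphosate at 10 µg/L. In each of these comparisons the share of all 9533 tested genes called was 0% as well. Members at an unadjusted p under 0.05 were 0, 0, 0, 0, 1 and 1 in that order, with limma and with the ordinary linear model, which called none either. NDUFA9, NDUFAF2 and NDUFAF7 were below the filter.

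At glyphosate 10 µg/L the median member difference was −0.04 (9 higher, 34 lower), at 1 mg/L 0.14 (41 higher, 2 lower) and at 0.1 g/L −0.01 (20 higher, 23 lower), in each case the same as the median of all tested genes to 2 decimals. Intervals lay within 1 log2 unit of no difference for 42, 40 and 40 of 43 members. These medians rested on single libraries. At 10 µg/L the median was −0.21 without control replicate 5 and 0.15 without glyphosate 10 µg/L replicate 5, and at 0.1 g/L it was −0.16 without control replicate 5 and 0.15 without glyphosate 0.1 g/L replicate 2. The shift at 1 mg/L, the dose with no library of low overall median, was −0.01 without control replicate 5. With each library scaled by its 75th percentile, the medians were 0.04, 0.13 and 0.16, and after quantile normalization 0.01, 0.01 and 0.02.

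Among single genes, NDUFAF6, an assembly factor of the quinone module, was among the smallest p at all 3 glyphosate doses but with different signs: −0.33, 0.49 and −0.58 (0.20 and −0.073 over the locus at 1 mg/L and 0.1 g/L). Its values were 3.37, 4.60, 2.01, 2.09 and 3.27 FPKM in control and 3.23, 4.74, 5.66, 5.38 and 4.18 FPKM at 1 mg/L. The ranges overlapped, and the exact two-sided permutation p at 1 mg/L was 0.0635 (0.322 adjusted over 24 tests). NDUFA8, a membrane-arm subunit on the side of the intermembrane space, was 15.1, 13.5, 16.5, 13.3 and 6.39 FPKM in control and 18.3, 17.5, 16.5, 16.7 and 14.4 FPKM at 1 mg/L, a difference of 0.39 (limma adjusted p = 0.963), and of 0.18 without control replicate 5. The exact two-sided permutation p of NDUFA8 was 0.0476 (0.322 adjusted over 24 tests), and the ranges overlapped. At 0.1 g/L the next were NDUFB4 (−0.36, and −0.14 without glyphosate 0.1 g/L replicate 5) and NDUFA3 (−0.28, and −0.13 without control replicate 3), and at 10 µg/L NDUFB3 (−0.16) and NDUFV3 (−0.16).

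The core subunits under glyphosate stayed close to control. NDUFV1 was 31.2 ± 7.03 FPKM in control, 30.2 ± 9.23 at 10 µg/L, 34.7 ± 2.799 at 1 mg/L and 31.5 ± 6.78 at 0.1 g/L (SD, n = 5 each). NDUFV2 was 70.8 ± 17.2, 69.7 ± 20.8, 76.95 ± 11.2 and 69.5 ± 18.1 FPKM in the same order.

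Roundup had 42 of 43 members lower than control in mean log2(FPKM + 1) (median −0.18, all tested genes −0.18) and 40 of 43 lower than glyphosate at the same 10 µg/L (median −0.15 against −0.14). Of its libraries, 2 were of low overall median. Without Roundup replicate 5 the medians were −0.00 against control and 0.05 against glyphosate, and with scaling by the 75th percentile 0.01 and −0.03. For the core subunits, differences from control ran from −0.12 (NDUFV1) to −0.27 (NDUFS7), and those from glyphosate were −0.05 for NDUFV1 and −0.20 for NDUFS8. Intervals lay within 1 log2 unit for 38 of 43 members against control and 39 of 43 against glyphosate, so a difference of that size lay outside the interval for these members.

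NDUFV3, an accessory subunit of the NADH-binding module, was the 1 tested member with a higher mean log2(FPKM + 1) in Roundup than in control. Its values were 6.23, 5.84, 2.28, 1.23 and 3.79 FPKM with Roundup, 1.24, 3.75, 1.34, 2.24 and 1.44 in control, and 1.31, 2.15, 1.55, 1.72 and 1.27 with glyphosate at 10 µg/L. The ranges overlapped through Roundup replicates 3 and 4. The difference was 0.63 against control (interval 0.03 to 1.23, limma adjusted p = 0.902) and 0.78 against glyphosate (interval 0.19 to 1.38, limma adjusted p = 0.974). The exact two-sided permutation p against glyphosate was 0.0635 (0.322 adjusted over 24 tests). Over the whole locus, unnamed transcripts included, the differences were 0.08 and 0.15. NDUFC1 and NDUFC2 followed against control, at −0.50 (−0.30 without Roundup replicate 5) and −0.31 (−0.17 without control replicate 1).

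**Figure D5:**
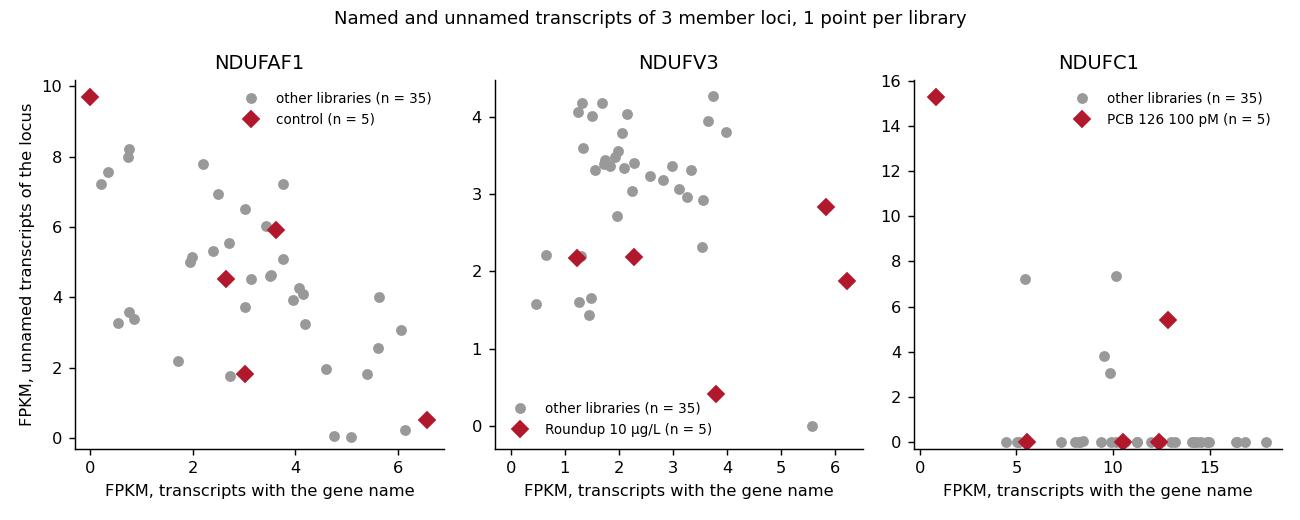
FPKM of transcripts that carry the gene name (horizontal) and of unnamed transcripts of the same locus (vertical) for NDUFAF1, NDUFV3 and NDUFC1, 1 point per library (n = 40), with the group named in each panel in red. Control replicate 2 has 0 named and 9.70 unnamed FPKM of NDUFAF1, and PCB 126 100 pM replicate 3 has 0.832 named and 15.3 unnamed FPKM of NDUFC1.

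The other genes of the pathway were read from lists. Of the 7 subunits encoded by mitochondrial DNA, 6 were tested in the PCB 126 table and 5 in the herbicide table, and 0 were called by limma in any comparison (at most 2 at an unadjusted p under 0.05). Their summed level was 1.46 to 84.4 FPKM per library. MT-ND3 was listed at 0 in 40 libraries, MT-ND4L in 39, MT-ND6 in 37, MT-ND4 in 28, MT-ND2 in 21, MT-ND5 in 18 and MT-ND1 in 9. Mitochondrial transcripts are abundant in liver cells in general, so a listed 0 may be a failed estimate and the levels of these genes were not set beside those of the nuclear members.

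Of 14 further assembly factors, 13 were found, 10 were tested, and 0 were called in any comparison (at most 2 at an unadjusted p under 0.05, at 1 µM and for the trend). The 4 genes of complex II, 9 of complex III, 10 nuclear genes of complex IV and 15 found genes of complex V gave 0 calls as well, with at most 3 members of a list at an unadjusted p under 0.05. At 1 µM the median differences were −0.23, −0.36, −0.42 and −0.22, beside −0.20 for complex I and −0.26 for all tested genes.

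Among 9 regulators of mitochondrial biogenesis, of which 7 were tested, PPARGC1A, the coactivator that raises respiratory gene transcription, fell with PCB 126. It was 8.09, 8.28, 8.28, 4.04 and 3.80 FPKM in control, 5.85, 5.65, 5.69, 5.16 and 3.68 at 100 pM, 2.45, 3.21, 1.82, 4.22 and 1.03 at 10 nM, and 0.621, 1.94, 1.90, 2.16 and 1.07 at 1 µM. At 1 µM every library lay below every control library. The difference was −1.54 (interval −2.12 to −0.96, limma adjusted p = 0.00268), from −2.04 to −1.20 over the alternatives tried and past the test in each, and the slope was −0.55 per dose step (limma adjusted p = 0.000482). It was −1.09 at 10 nM (limma adjusted p = 0.180). The other 6 tested regulators were not called. At 1 µM no member of complex I was called, which does not show that these genes were unchanged. Any relation between PPARGC1A and the complex I genes was not tested.

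Some markers of the cell types in the culture moved with the PCB 126 doses. Of 8 hepatocyte-like markers, TTR fell at 1 µM (−1.62, limma adjusted p = 0.00797), and ALB, TF, CYP2E1 and TTR fell over the dose steps. HNF4A and CYP3A4 of the same list had differences of 0.41 and 0.39 at 1 µM (limma adjusted p = 0.526 and 0.601), and APOA1 and SERPINA1 of −0.43 and −0.83, none past the test. The summed level of the 8 was 13278 to 19409 FPKM in control and 5437 to 13310 FPKM at 1 µM. Of 7 biliary-like or progenitor-like markers, 4 were tested and SPP1 fell over the dose steps. Their sum was 279 to 534 FPKM in control and 164 to 284 FPKM at 1 µM. EPCAM was listed at 0 in all libraries at 10 nM and 1 µM, and also in all libraries of glyphosate 0.1 g/L. It was at most 0.0401 FPKM in control. Of 5 stromal markers, 3 were tested and COL3A1 fell at 10 nM (−1.87, limma adjusted p = 0.0232) and at 1 µM (−3.07, limma adjusted p = 2.29e-05), with a list sum of 9.44 to 21.6 FPKM in control and 2.42 to 7.60 FPKM at 1 µM; COL1A2 was listed at 0 in all libraries at both doses. In bulk libraries, fewer cells of a type and less RNA per cell cannot be told apart. The part of these markers in the levels of PPARGC1A and of the complex I genes was not tested. In the herbicide comparisons 0 markers of the 3 lists were called.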

How the data were processed

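RNA of 40 HepaRG libraries was sequenced after depletion of ribosomal RNA with a directional kit. Per the submitters' processing notes, reads were aligned to GRCh38 with HISAT2 and assembled with StringTie. The authors deposited FPKM per transcript in 2 tables (PCB 126, 20 libraries; glyphosate and Roundup, 25 libraries) that share the 5 control libraries. Deposited columns that hold values slightly below 0 were treated as a score; these 4 and 6 values were set to 0. The tables hold FPKM without read counts, so no counting intervals were given. FPKM was summed per gene name over 234960 transcripts, of which 35782 carry no name.

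Genes with a variance above 1 were tested on log2(FPKM + 1) with limma 3.58.1 (R 4.3.3), per table, with Benjamini-Hochberg adjustment over all tested genes (threshold 0.05). Differences are on this scale, which understates changes of low genes. Named members were the core subunits, NDUFA4, NDUFAB1, the 5 highest and 5 lowest, and the 3 of smallest p in each comparison, which were also tested by exact two-sided permutation over 252 splits (smallest possible p 0.00794); 1 item is not reported here. Promoters came from RefSeq. Python 3.11.15, numpy 2.4.6, pandas 2.3.3, scipy 1.17.1 and matplotlib 3.10.9 were used, and the tests were tested on simulated data. Members and gene lists were chosen with earlier results of these data known.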

Additional observations from a re-analysis of the deposited data

Results flagged for a closer look

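Within groups of 5 libraries, a library was singled out where its gap to the nearest other library exceeded 0.71 of the range of the group, Dixon's 95% critical value. This held for 7 of the 232 group values examined, and chance alone gives about 1 in 20. Control replicate 5, a library of low overall median, was low for NDUFV1 (18.8 FPKM, nearest 32.2) and for NDUFA11 (22.9 FPKM, nearest 42.5). PCB 126 10 nM replicate 3, also of low overall median, was low for NDUFA8 (7.42 FPKM, nearest 12.8). PCB 126 100 pM replicate 4 was low for NDUFA5 (14.9 FPKM, nearest 21.4). High values were those of NDUFS6 in PCB 126 10 nM replicate 2 (3.67 FPKM, nearest 2.50), of NDUFAF2 in PCB 126 1 µM replicate 3 (2.20 FPKM, nearest 0.519) and of NDUFA3 in glyphosate 0.1 g/L replicate 1 (9.72 FPKM, nearest 6.74).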

How the results depend on the processing

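No member was called in any of the 11 comparisons under the 13 alternative settings or with each of the 40 libraries left out, and the smallest adjusted p of a member was 0.0568 (NDUFB5, dose trend −0.24, without control replicate 5). Signs turned for NDUFB3 at glyphosate 10 µg/L (−0.36 to 0.042 over single left-out libraries, the latter without glyphosate 10 µg/L replicate 5), for NDUFV3 at glyphosate 10 µg/L (−0.25 to 0.024, the latter without control replicate 2) and for NDUFAF8 in Roundup against glyphosate (−0.70 to 0.11, the latter without Roundup replicate 5, and 0.085 without the libraries of low median, a setting chosen after seeing the data). The cause was not tested. The count of all genes called moved by over 1.5 times, or away from 0, in 60 combinations of comparison and setting. Where the main count was 0, it reached at most 4 genes (Roundup, and Roundup against glyphosate, with only the groups compared). Across PCB 126 groups it was 136 (70 with the ordinary linear model, 714 with quantile normalization). At 10 nM it was 20 (12 and 184) and at 1 µM 182 (123 and 1085). For the trend it was 361 (236 with the most abundant transcript, 1257 with quantile normalization). At 1 µM the split was 63 higher and 119 lower, 532 and 553 with quantile normalization, and 247 and 345 with 75th-percentile scaling. Leaving out control replicate 5 gave 208 across groups, 366 at 1 µM and 761 for the trend, and leaving out control replicate 2 gave 210 for the trend. The labels give library numbers but no pairing. These numbers fall into 5 runs, each holding every group once, and the replicate numbers used here follow the runs. With a replicate block by library number, 270 genes were called across groups, 37 at 10 nM, 357 at 1 µM and 607 for the trend, and 0 members. Same-numbered libraries had a median correlation of 0.05 (40 of 140 pairs over 0.1) against −0.02 for other pairs, and 30 of 40 libraries correlated best with their own number. This is a hint of pairing from the data. Since no label states it and most pairs were at or under 0.1, the main test kept no block. The permutation tests were unpaired as well. FPKM holds no count per value, so the counting error of low members was not separated from the spread between libraries.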
